A study of Mus musculus with 12 samples.

Results

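The 7 genes Rrm1, Rrm2, Tyms, Dut, Tk1, Dtymk and Dck encode enzymes that make the deoxynucleotides used for DNA synthesis. They were taken by symbol from a table of 24421 genes by what they encode, with earlier results of these data known, and all 7 were present and passed the count filter in total RNA and in ribosome-protected fragments (RPF). The libraries came from B16 cells, a mouse melanoma line, transduced with lentivirus that expressed either a non-relevant shRNA (shControl) or 1 shRNA specific for Elp3 (shELP3). RPF are the short pieces of mRNA that a ribosome shields from nuclease, and they were sequenced beside total RNA with the TruSeq Ribo Profile (Mammalian) kit. There were 3 libraries (A, B and C) per fraction and shRNA. By the labels an RPF library and the RNA library with its shRNA and letter come as a pair, so the 12 libraries stand for 6 cultures grown in DMEM with serum. With 1 shRNA per target, an effect of Elp3 loss and another effect of that shRNA cannot be told apart. The labels do not say whether each culture was transduced on its own, and the p-values here therefore describe only how far these cultures vary, which may be technical.

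Ribonucleotide reductase turns ribonucleotides into deoxynucleotides and is made of a large catalytic subunit, Rrm1, and a small subunit that carries a tyrosyl radical, Rrm2. Thymidylate needs further steps. Dut removes dUTP and yields dUMP, Tyms methylates dUMP to dTMP with a folate cofactor, Tk1 makes dTMP from thymidine, and Dtymk carries dTMP to dTDP. Dck phosphorylates deoxycytidine, deoxyadenosine and deoxyguanosine in salvage. In dividing cells several of these genes, Rrm2, Tyms and Tk1 among them, are known for transcripts that peak around S phase, and Rrm2b is the small subunit that also serves cells outside it.

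The genes lie on 6 chromosomes of build GRCm38.p6, the RefSeq assembly that corresponds to mm10. Rrm1 spans chr7:102441695-102469771, Rrm2 chr12:24708254-24714146, Tyms chr5:30038546-30073645, Dut chr2:125247248-125259049, Tk1 chr11:117815519-117826087, Dtymk chr1:93792576-93802068 and Dck chr5:88765013-88783277. Tk1 overlaps Afmid by 585 bases, and the other 6 overlap no other gene of that annotation. Upstream sequence is shown for both reductase subunits, picked because they hold E2F and CCAAT matches, and for Tyms, which holds none of the motifs searched. Whether these matches relate to the levels of the genes was not tested. The windows are the bases just upstream of the RefSeq start, written 5′ to 3′ on the gene's strand, with matches to the E2F, CCAAT, CHR and TATA words described next in capitals; 20 bases of the Tyms window that lie inside a longer model of the gene are left out.
Rrm1, chr7:102441445-102441694, plus strand: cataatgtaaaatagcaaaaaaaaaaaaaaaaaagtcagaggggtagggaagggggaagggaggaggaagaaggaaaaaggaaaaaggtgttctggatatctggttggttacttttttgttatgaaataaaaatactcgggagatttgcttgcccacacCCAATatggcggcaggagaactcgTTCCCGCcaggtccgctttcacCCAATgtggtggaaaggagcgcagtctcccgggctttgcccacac
Rrm2, chr12:24708004-24708253, plus strand: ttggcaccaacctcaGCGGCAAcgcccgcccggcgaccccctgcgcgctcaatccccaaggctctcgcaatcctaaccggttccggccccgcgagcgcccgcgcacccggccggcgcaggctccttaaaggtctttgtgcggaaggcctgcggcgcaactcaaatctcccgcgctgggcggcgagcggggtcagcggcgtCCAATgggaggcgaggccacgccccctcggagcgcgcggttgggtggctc
Tyms, chr5:30073646-30073875, minus strand: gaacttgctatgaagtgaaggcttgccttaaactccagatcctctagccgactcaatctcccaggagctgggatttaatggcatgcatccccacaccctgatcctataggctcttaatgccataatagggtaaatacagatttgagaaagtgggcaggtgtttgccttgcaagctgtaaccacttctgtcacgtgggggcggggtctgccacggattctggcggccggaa

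The motifs were searched on both strands in the 250 bases upstream of the start in all 32851 RefSeq mouse windows, counted from the start that the promoter table gives. The windows of Tyms, Tk1 and Dtymk lie partly, and that of Dut wholly, inside a longer model of the same gene, so the Dut search covers no sequence outside the gene. An E2F core was any of 4 words, namely TTCGCGC or its variant TTGGCGC, together with TTCCCGC and the form TTGCCGC. It was present in 3 of the 7, Rrm1, Rrm2 and Dtymk, and in 7.887% of all windows. Counted from the start, it began at -67 in Rrm1, at -72 in Dtymk and, on the opposite strand, at -235 in Rrm2, and the Dtymk match lies inside that gene's longer model. CCAAT, the core bound by NF-Y, was present in the same 3 genes and in 33.85% of all windows. Rrm1 has CCAAT at -91 and -45, on either side of its E2F core, and Rrm2 has it at -50. The cell cycle homology region (CHR, TTTGAA or TTCGAA) matched only in Dck among the 7 and in 17.15% of all windows. TATAAA matched in none of the 7 and in 12.37% of all windows. These are matches of letters, and no binding was measured.

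Total counts ran from 7914369 to 16527864 per RNA library and from 7619269 to 10998570 per RPF library, and the 7 genes together took 0.018 to 0.136% of them. Elp3 itself was at 47.5% of the control mean in RNA (edgeR: -1.08 on the log2 scale with SE 0.22 and adjusted p = 0.083) and at 52.3% in RPF (-0.93, SE 0.15, adjusted p = 0.025). Letter A libraries stood apart: replicates of 1 group differed with a chi-square per degree of freedom of 73.7 to 229 where letter A was one of the pair, except in shELP3 RPF, where it was 13.5 and 18.7. Pairs of B with C differed by 8.70 to 18.4. Gene levels are given below as CPM (counts scaled to library size by TMM), but the marker sums here were scaled to library totals without TMM. All 7 melanocyte markers (Pmel, Tyr, Tyrp1, Dct, Mlana, Mitf, Sox10) were detected. Their summed CPM was 7167 to 11940 in control RNA and 6181 to 7860 in shELP3 RNA. In RPF their sum was 13614 to 33555 and 11895 to 20401. Of 7 macrophage and leukocyte markers 1, Cd68, reached 10 counts in any library. Ptprc and Adgre1 were at 0 in all RNA and control RPF libraries, but neither was at 0 in every shELP3 RPF library. The summed level was 5.95 to 15.8 CPM in control and 3.02 to 8.41 CPM in shELP3 RNA (RPF 21.3 to 71.6 and 10.8 to 32.3). Of 6 fibroblast markers 2 reached 10 counts, with Dcn at 0 throughout and sums of 10.7 to 26.1 and 22.0 to 45.9 CPM in RNA (RPF 24.6 to 25.3 and 36.1 to 40.7). The 5 epithelial markers summed to at most 1.46 CPM in any library. The part of these sums in the results was not tested.

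Both reductase subunits fell in total RNA after Elp3 knockdown, to 35.9% of control for Rrm1 and 23.5% for Rrm2. Rrm1 RNA stood at 118, 177 and 135 CPM in control cultures A, B and C and at 49.6, 51.6 and 53.2 CPM in the shELP3 cultures. The 3 knockdown libraries lay within a narrow band and every control lay well above them. Mean levels were 143 ± 30.7 and 51.5 ± 1.85 CPM (mean ± SD of 3 libraries, here and below), and edgeR gave a log2 fold change of -1.48 ± 0.23 (SE) at an adjusted p = 0.036. Rrm2 RNA was 81.1, 178 and 136 CPM in control and 24.5, 34.3 and 34.2 CPM in shELP3 cultures. Control A was the lowest control library and shELP3 A the lowest knockdown library, and the groups did not overlap. The means were 132 ± 48.6 and 31.0 ± 5.64 CPM, and edgeR gave a log2 fold change of -2.09 ± 0.34 (SE) at adjusted p = 0.040. Both RNA calls were lost without any single library other than control A (any knockdown library, control B, or control C), at edgeR adjusted p of 0.133 to 0.235 for Rrm1 and 0.136 to 0.225 for Rrm2. Fewer cells that express an enzyme and less RNA per cell cannot be told apart in these bulk libraries.

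In footprints Rrm2 fell and Rrm1 missed the threshold narrowly. Rrm1 RPF was 207, 537 and 415 CPM in control and 100, 154 and 157 CPM in shELP3 cultures. Control A lay nearer to the knockdown libraries than to the other controls, but the groups did not overlap. Its means of 386 ± 167 and 137 ± 32.0 CPM differed by -1.50 on the log2 scale (edgeR: SE 0.34, adjusted p = 0.0501). Rrm2 RPF was 119, 409 and 290 CPM in control and 34.8, 67.1 and 71.9 CPM in shELP3 cultures. Control A was again the lowest control, though above every knockdown library. The means were 273 ± 146 and 57.9 ± 20.2 CPM, and edgeR gave a log2 fold change of -2.23 ± 0.46 (SE) at adjusted p = 0.039, which leaves 21.3% of control. That call was likewise lost without any single library other than control A, at an edgeR adjusted p of 0.102 to 0.173.

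**Figure D1:**
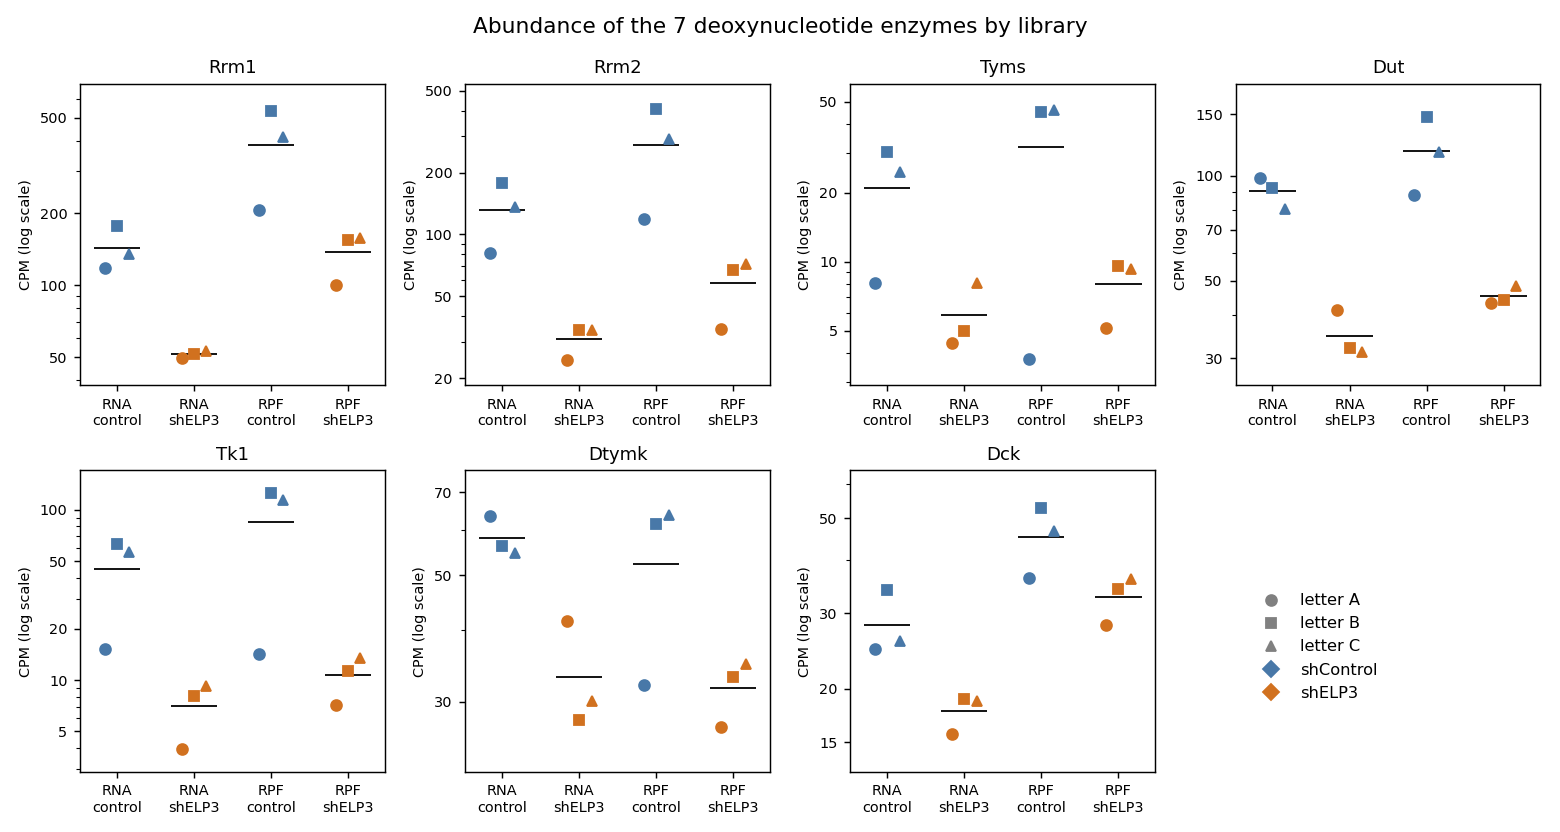
Level of each of the 7 enzymes in every library, as TMM-scaled CPM on a log axis that differs by panel; colours give the shRNA, symbols the replicate letter and horizontal lines the mean of 3 libraries. In every panel the shELP3 mean lies below the control mean of the same fraction, and control A of Tyms and Tk1 lies near the shELP3 libraries.

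Of the thymidylate enzymes Dut fell in both fractions. Dut RNA was 98.6, 92.1 and 80.1 CPM in control and 41.2, 32.1 and 31.2 CPM in shELP3 cultures. Here control A was the highest of its group, unlike in Rrm2, though by library totals without TMM it was the lowest control. With TMM the lowest control was 80.1 CPM against a highest knockdown value of 41.2 CPM. The means were 90.3 ± 9.35 and 34.8 ± 5.53 CPM, and edgeR gave a log2 fold change of -1.37 ± 0.22 (SE) at adjusted p = 0.040. Dut RPF was 88.1, 148 and 117 CPM in control and 43.2, 44.2 and 48.4 CPM in shELP3 cultures. The knockdown footprints were nearly level across the letters, and all lay below every control. The means were 118 ± 29.9 and 45.2 ± 2.76 CPM, and edgeR gave a log2 fold change of -1.38 ± 0.20 (SE) at adjusted p = 0.020. Without any single library other than control A both Dut calls were lost, at an edgeR adjusted p of 0.105 to 0.249 in RNA and 0.0565 to 0.137 in RPF.

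Tyms, the target of fluoropyrimidine drugs, had low counts in control A as well as after knockdown, and did not pass the test in either fraction. Tyms RNA was 8.13, 30.1 and 24.7 CPM in control and 4.44, 4.99 and 8.13 CPM in shELP3 cultures. Control A and shELP3 C were equal to 3 digits, so the groups are separated by less than 1 read is worth. The means were 21.0 ± 11.4 and 5.85 ± 1.99 CPM (log2 fold change -1.84 ± 0.51 SE, adjusted p = 0.180 by edgeR). Tyms RPF was 3.78, 45.1 and 46.0 CPM in control and 5.15, 9.58 and 9.33 CPM in shELP3 cultures. The control A value rests on 27 counts and is the lowest of all 6 libraries, so the groups overlapped. The log2 fold change was -1.98 (edgeR: SE 0.75, adjusted p = 0.164). The pseudogene Tyms-ps had 0 to 3 counts in any library.

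Tk1, the salvage kinase for thymidine in the cytosol, had the largest change of the 7 in both fractions and did not pass the test with all libraries. Tk1 RNA was 15.3, 63.4 and 56.4 CPM in control and 3.96, 8.08 and 9.23 CPM in shELP3 cultures. The groups did not overlap, with control A between the other controls and the knockdown. Its log2 fold change of -2.67 (95% interval -4.04 to -1.31, edgeR adjusted p = 0.099) was the 29th lowest of the 12274 genes tested. Tk1 RPF was 14.3, 125 and 115 CPM in control and 7.15, 11.3 and 13.5 CPM in shELP3 cultures. Control A lay just above the highest knockdown library, far below controls B and C. The log2 fold change was -2.99 (95% interval -4.63 to -1.35, edgeR adjusted p = 0.056), the 14th lowest of 11343 genes. Afmid, whose gene model overlaps that of Tk1, had higher values after knockdown, at 13.6, 18.1 and 19.5 CPM in control RNA and 23.5, 25.8 and 27.1 CPM in shELP3 RNA (log2 fold change 0.58, edgeR adjusted p = 0.365). The 2 genes' values differed in direction, and reads of the shared bases could not be assigned from counts alone.

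Dtymk, which every thymidylate route passes through, had a smaller difference. Dtymk RNA was 63.5, 56.4 and 54.7 CPM in control and 41.5, 27.8 and 30.1 CPM in shELP3 cultures. Letter A was the highest library of both groups, though by library totals without TMM control A was the lowest control. The groups did not overlap. The log2 fold change was -0.81 (edgeR: SE 0.23, adjusted p = 0.200). Dtymk RPF was 32.1, 61.5 and 63.7 CPM in control and 27.1, 33.2 and 35.0 CPM in shELP3 cultures. Control A lay below shELP3 B and C, so the groups overlapped. The log2 fold change was -0.73 (edgeR: SE 0.26, adjusted p = 0.152).

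Dck, the deoxycytidine salvage kinase that also activates cytarabine and gemcitabine, had the smallest change of the 7 in both fractions. Dck RNA was 24.8, 34.0 and 25.9 CPM in control and 15.7, 18.9 and 18.8 CPM in shELP3 cultures. Every knockdown library lay below every control, with a knockdown mean at 62.9% of control. The log2 fold change was -0.67 (edgeR: SE 0.23, adjusted p = 0.278). Dck RPF was 36.3, 52.9 and 46.6 CPM in control and 28.2, 34.1 and 36.1 CPM in shELP3 cultures. Control A and shELP3 C were nearly equal, although the groups did not overlap. The log2 fold change was -0.46 (edgeR: SE 0.18, adjusted p = 0.178).

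In total RNA 3 of the 7 genes (Rrm1, Rrm2, Dut) were called lower and 0 higher by edgeR's quasi-likelihood test at an adjusted p of 0.05, where 0.921% of the 12274 genes tested were called lower and 0.22% higher. In RPF 2 of the 7 (Rrm2, Dut) were called lower and 0 higher, where 3.06% of 11343 genes were called lower and 1.77% higher. The groups did not overlap, with knockdown below control, for 7 of 7 genes in RNA and 5 of 7 in RPF, against 9.56% and 15.3% of all genes tested. All 7 had an unadjusted p under 0.05 in each fraction, as had 1519 of all 12274 genes in RNA and 2622 of 11343 in RPF. The median log2 fold change was -1.48 in RNA and -1.50 in RPF, against -0.02 and -0.01 over all genes. From most to least negative the order was Tk1, Rrm2, Tyms, Rrm1, Dut, Dtymk and Dck in both fractions. Neighbours in that order had overlapping 95% intervals, and RNA and RPF share the 6 cultures.

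**Figure D2:**
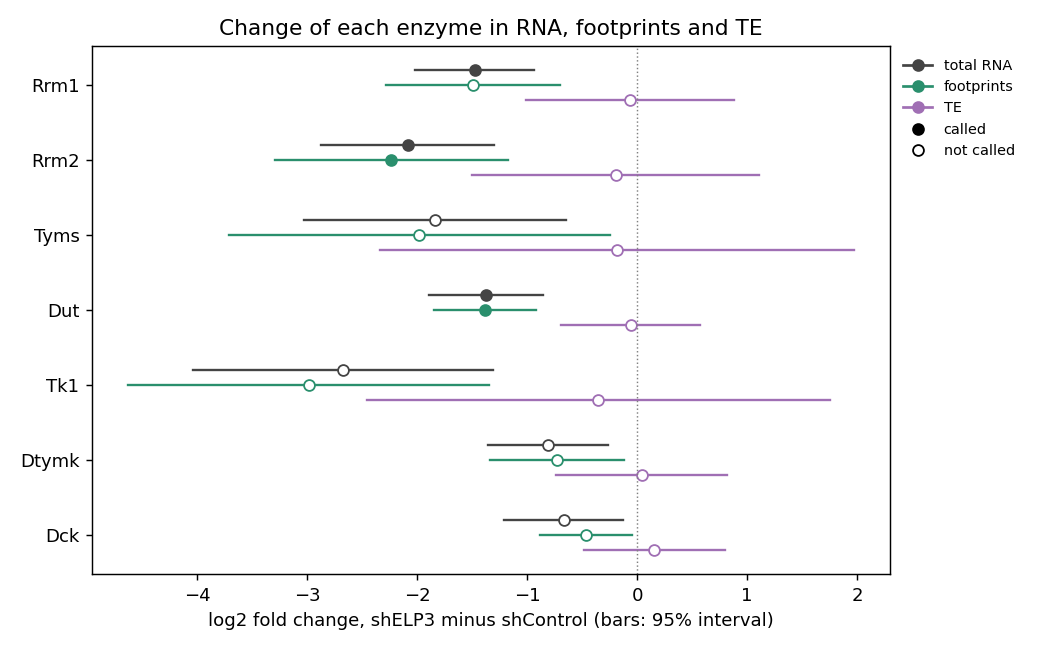
Log2 fold change, shELP3 minus shControl, of each enzyme in total RNA, footprints and TE (footprints relative to RNA); bars are 95% intervals from the edgeR fits, and filled points passed an adjusted p of 0.05. RNA and footprint points lie left of 0 for all 7 genes, and the TE intervals all include 0.

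The number of genes called depended on how letter A was treated. With the letter as a block, 7 of 7 were called lower in RNA, from -2.52 for Tk1 (SE 0.23, edgeR adjusted p = 6.07e-06) to -0.66 for Dck (SE 0.19, adjusted p = 0.039), where 6.75% of genes were called lower. Tyms was then at -1.68 (adjusted p = 0.0018) and Dtymk at -0.83 (adjusted p = 0.0076). With letters B and C alone, 7 of 7 were called lower in RNA and 7 of 7 in RPF by edgeR, where 10.5% and 12.2% of genes were called lower. On those letters Tk1 changed by -2.78 in RNA and -3.27 in RPF, Rrm2 by -2.20 and -2.33, and Tyms by -2.03 and -2.27. Rrm1 changed by -1.58 and -1.62, Dut by -1.44 and -1.52, Dtymk by -0.94 and -0.88, and Dck by -0.67 and -0.50. Without control A only, edgeR called 5 of 7 in RNA, with Tyms and Tk1 added, and 7 of 7 in RPF, where 3.01% and 14% of genes were called lower. Without any single one of the other 5 libraries (control B, control C, shELP3 A, B or C) it called 0 of 7 in either fraction. Of all genes it then called 0 in RNA, and 52 and 59 in RPF without control B and C and 0 without an shELP3 library. An unadjusted p under 0.05 was kept by 6 to 7 of the 7 in RNA and 4 to 6 in RPF. Over all genes, 947 to 1376 of 12332 to 12562 in RNA and 1734 to 2302 of 11488 to 11519 in RPF had such a p. The log2 fold changes of the 7 genes stayed below 0 in all of these fits. With DESeq2, 6 of 7 were called lower in RNA (all but Dck) and 4 of 7 in RPF (Rrm1, Rrm2, Tk1, Dut), where 3.43% and 6.88% of genes were called lower. With library totals in place of TMM, 0 of 7 passed in RNA, where 58 of 12274 genes were called lower. The edgeR adjusted p was then 0.093 for Rrm1 and Rrm2 and 0.060 for Dut, and the median of all genes moved from -0.02 to 0.10.

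Within each letter, the shELP3 library was compared with the control library for each of the 7 genes. The shELP3 value was lower in all 21 RNA pairs and in 20 of 21 RPF pairs. The exception was Tyms RPF of letter A, at 0.42 on the log2 scale. The 21 pairs are 7 genes in the same 3 letters, so they are not independent. The median change of the 7 in RNA was -1.25 for letter A, -1.78 for B and -1.35 for C. In RPF it was -0.98, -1.80 and -1.40. Over all genes tested the median change was 0.0084, 0.0036 and 0.0036 in RNA and 0.019, 0.0023 and -0.014 in RPF. The spread between letters was wide for Tk1 RPF, at -0.98, -3.44 and -3.07 for A, B and C, and for Tyms RNA, at -0.85, -2.55 and -1.59. It was narrow for Dut RNA, at -1.25, -1.52 and -1.35, and for Dck RPF, at -0.36, -0.63 and -0.37.

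**Figure D3:**
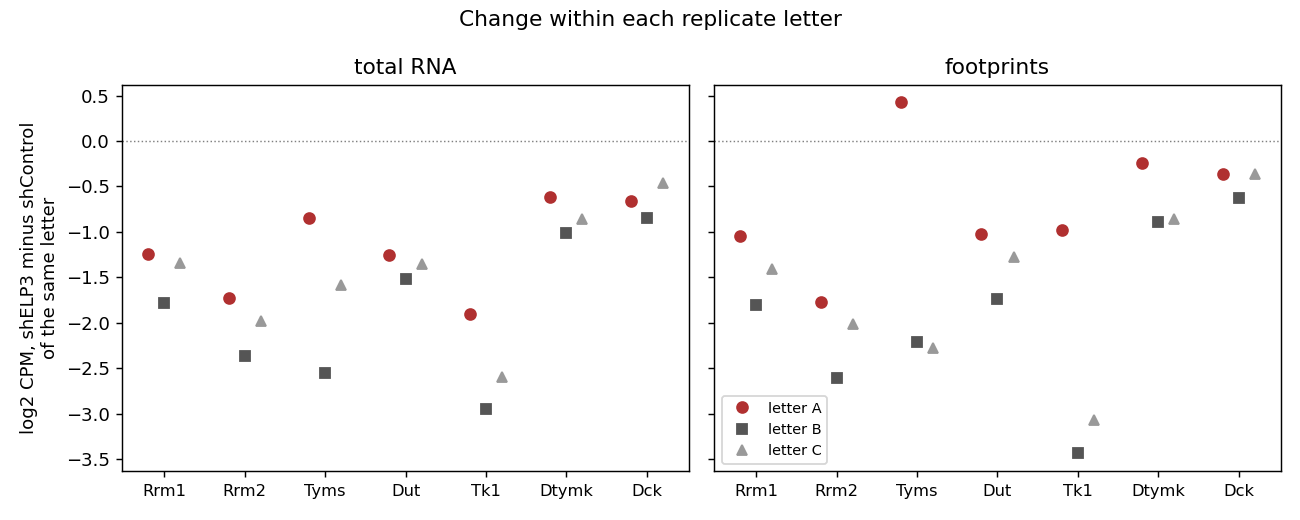
Log2 CPM of the shELP3 library minus that of the control library with the same letter, for each enzyme in total RNA and footprints. Letter A lies highest for most genes, and Tyms footprints of letter A are the only point above 0, at 0.42.

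Control A itself differed from controls B and C by gene. In RNA its level was 29.7% of their mean for Tyms, 25.5% for Tk1 and 51.7% for Rrm2, while Dut and Dtymk were both at 114%. Rrm1 was at 75.4% and Dck at 82.9%. In RPF all 7 were below the mean of B and C, at 8.30% for Tyms, 11.9% for Tk1, 34.0% for Rrm2, 43.4% for Rrm1, 51.2% for Dtymk, 66.4% for Dut and 72.9% for Dck. The genes with the largest knockdown change, Tk1, Rrm2 and Tyms, were thus also those lowest in control A, which is one of the 3 controls behind that change. The TMM factor of control A RNA was 0.813, against 1.01 to 1.06 in the other 5 RNA libraries. By library totals without that factor, Dut and Dtymk RNA of control A lay below controls B and C.

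Footprints relative to RNA, the translational efficiency (TE), did not pass the test for any of the 7 genes. The log2 change in TE was -0.06 for Rrm1 (95% interval -1.01 to 0.88), -0.19 for Rrm2 (-1.50 to 1.11) and -0.06 for Dut (-0.69 to 0.58). For Tyms it was -0.18 (-2.34 to 1.97), for Tk1 -0.35 (-2.46 to 1.75), for Dtymk 0.04 (-0.74 to 0.82) and for Dck 0.16 (-0.48 to 0.80). With the culture as a block, which uses the pairing of RNA and RPF, no member passed either and most intervals were narrower. Tk1 was then at -0.09 (-0.88 to 0.70), Tyms at 0.15 (-1.04 to 1.34) and Rrm2 at -0.15 (-0.73 to 0.43). The median over the 7 was -0.06, and over all genes -0.03. Of 11238 genes edgeR called 0 in TE, so 0% were called; 62 had an unadjusted p under 0.05, with 0 of the 7 among them. DESeq2 also called 0 (81 unadjusted), and edgeR with the culture as a block called 0 (184 unadjusted). On letters B and C alone it called 2 genes, or 0.0177%, neither of them among the 7, and Tk1, at -0.51, was then the 1 member with an unadjusted p under 0.05.

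The footprint to RNA ratio of Rrm1 was high among all genes in every culture. Its log2 ratio was 0.98, 1.73 and 1.73 in control A, B and C and 1.12, 1.64 and 1.65 in shELP3 A, B and C, which placed it at the 85.4 to 98.7 percentile of genes within a culture. Rrm2 was at 0.72, 1.34 and 1.21 in control and 0.61, 1.03 and 1.16 in shELP3 cultures, with letter A lowest in both groups. Tk1 was at 0.08, 1.11 and 1.14 in control and 0.88, 0.53 and 0.62 in shELP3 cultures. Tyms was at -0.85, 0.71 and 1.00 in control and 0.29, 0.94 and 0.28 in shELP3 cultures, so its control values spanned more than the difference between the groups. Dck was the steadiest, at 0.71, 0.77 and 0.95 in control and 0.94, 0.90 and 1.02 in shELP3 cultures. The part of the transcript over which reads were counted is not given in the sources used here, so the order of genes by this ratio may also depend on UTR length.

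Ratios of 2 genes within a library do not depend on how libraries are scaled, and 4 such ratios were compared in each fraction by an exact two-sided permutation test, adjusted over the 8 tests. With 3 against 3 the smallest p possible is 0.1. Rrm2 counts per Rrm1 count in RNA were 0.689, 1.00 and 1.01 in control and 0.494, 0.666 and 0.641 in shELP3 cultures. The small subunit was thus lower relative to the large one in every knockdown library, by -0.57 on the log2 scale (exact permutation p = 0.1, adjusted p = 0.133). In RPF the ratio was 0.575, 0.762 and 0.698 in control and 0.348, 0.435 and 0.458 in shELP3 cultures, a difference of -0.71 with the same p-values.

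Rrm2b, the alternative small subunit, did not pass the test with all libraries. Rrm2b RNA was 50.5, 37.1 and 39.6 CPM in control and 62.7, 57.6 and 48.8 CPM in shELP3 cultures (log2 fold change 0.41, edgeR adjusted p = 0.551). Its RPF log2 fold change was 0.39 (edgeR adjusted p = 0.291). On letters B and C alone Rrm2b was at 0.47 in RNA (edgeR adjusted p = 0.0501) and rose by 0.54 in RPF (adjusted p = 0.040). That RPF fit called 9.41% of all genes higher. The Rrm2 to Rrm2b count ratio in RNA went from 1.61, 4.80 and 3.42 in control to 0.390, 0.596 and 0.700 in shELP3 cultures. Rrm2 had more counts than Rrm2b in every control and fewer in every knockdown library, though counts of different genes also depend on transcript length. The log2 difference was -2.45 in RNA and -2.53 in RPF, where the ratio was 3.24, 16.3 and 11.6 in control and 0.860, 1.64 and 2.25 in shELP3 cultures (exact permutation p = 0.1 each, adjusted p = 0.133).

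Tk1 counts per Tyms count were lower in every knockdown library than in any control, which the test cannot call with 3 against 3. In RNA it was 1.88, 2.11 and 2.28 in control and 0.892, 1.62 and 1.14 in shELP3 cultures, a log2 difference of -0.82 (exact permutation p = 0.1, adjusted p = 0.133). In RPF it was 3.78, 2.77 and 2.50 in control and 1.39, 1.18 and 1.45 in shELP3 cultures, a log2 difference of -1.15 with the same p-values. Control A, low for both genes, kept a Tk1 to Tyms ratio near or above that of the other controls. The Tyms to Dck ratio overlapped between the groups, with 0.327, 0.884 and 0.954 in control RNA and 0.284, 0.264 and 0.433 in shELP3 RNA (log2 difference -1.03, exact permutation p = 0.2, adjusted p = 0.229). In RPF control A, at 0.104, was the lowest of all 6 libraries (log2 difference -0.91, exact permutation p = 0.4, adjusted p = 0.4).

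**Figure D4:**
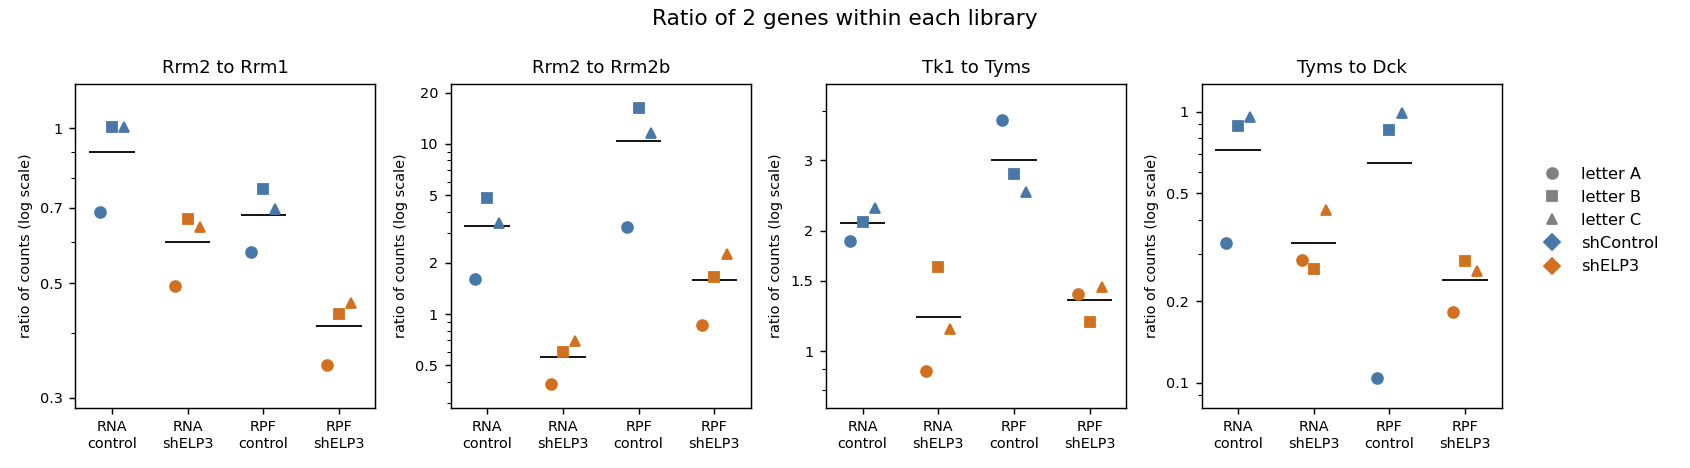
Ratio of the counts of 2 genes within each library, on log axes that differ by panel, with symbols for the letter and lines for the mean of 3 libraries. The groups do not overlap for Rrm2 to Rrm1, Rrm2 to Rrm2b and Tk1 to Tyms in either fraction, and they overlap for Tyms to Dck.

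A list of 57 other genes of nucleotide metabolism was measured in the same fits. In RNA 55 were tested and edgeR called 0, with 8 at an unadjusted p under 0.05, where 1519 of all 12274 genes had one. DESeq2 called 1 of the 55 lower and 1 higher, where it called 3.43% of all RNA genes lower and 1.88% higher. Their median log2 fold change was -0.29, with 41 of 55 below 0. In RPF 52 were tested, and 2 were called lower, a share near the 3.06% of all RPF genes called lower, and 0 higher. Their median log2 fold change in RPF was -0.23. The 2 were Ppat and Gmps. Ppat, which commits PRPP to the purine ring, fell in RPF, at 96.8 ± 10.5 CPM in control and 59.6 ± 2.4 CPM in shELP3 cultures (log2 fold change -0.70 ± 0.14 SE, adjusted p = 0.037 by edgeR). Gmps, which makes GMP, fell too, at 174 ± 15.0 and 116 ± 9.3 CPM (-0.59, SE 0.13, adjusted p = 0.049). Neither passed with library totals or without any single library other than control A, where edgeR called 0 of 52, while DESeq2 called 8 lower and 2 higher, where it called 6.88% of all RPF genes lower and 4.65% higher. With the letter as a block, 11 of the 55 were called lower and 2 higher in RNA, where 6.75% of all genes were called lower and 5.46% higher.

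By group, the median RNA log2 fold change was -0.36 for 8 folate cycle genes, -0.25 for 7 pyrimidine ring genes and -0.39 for 15 purine genes. It was -0.37 for 8 nucleotide kinases, -0.04 for 11 genes of breakdown and pool cleaning, -0.61 for 3 nucleoside transporters and 0.41 for Rrm2b with the mitochondrial salvage kinases Tk2 and Dguok. With the letter as a block in RNA, the purine enzymes Paics (-1.01, edgeR adjusted p = 0.0048) and Impdh2 (-0.84, adjusted p = 0.0076) and the uridine kinase Uck2 (-0.80, adjusted p = 0.0093) fell. The mitochondrial kinase Tk2 was at 0.47 in RNA (edgeR adjusted p = 0.690) and 0.49 in RPF (adjusted p = 0.282). On letters B and C alone Tk2 rose by 0.71 in RNA (edgeR adjusted p = 0.016) and was at 0.71 in RPF (adjusted p = 0.054). Those fits called 8.88% of all RNA genes and 9.41% of all RPF genes higher. Dguok was at -0.14 in RNA (edgeR adjusted p = 0.949) and 0.29 in RPF (adjusted p = 0.419). Samhd1, which degrades deoxynucleotides, was at -0.29 in RNA (edgeR adjusted p = 0.688) and -0.16 in RPF (adjusted p = 0.563).

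**Figure D5:**
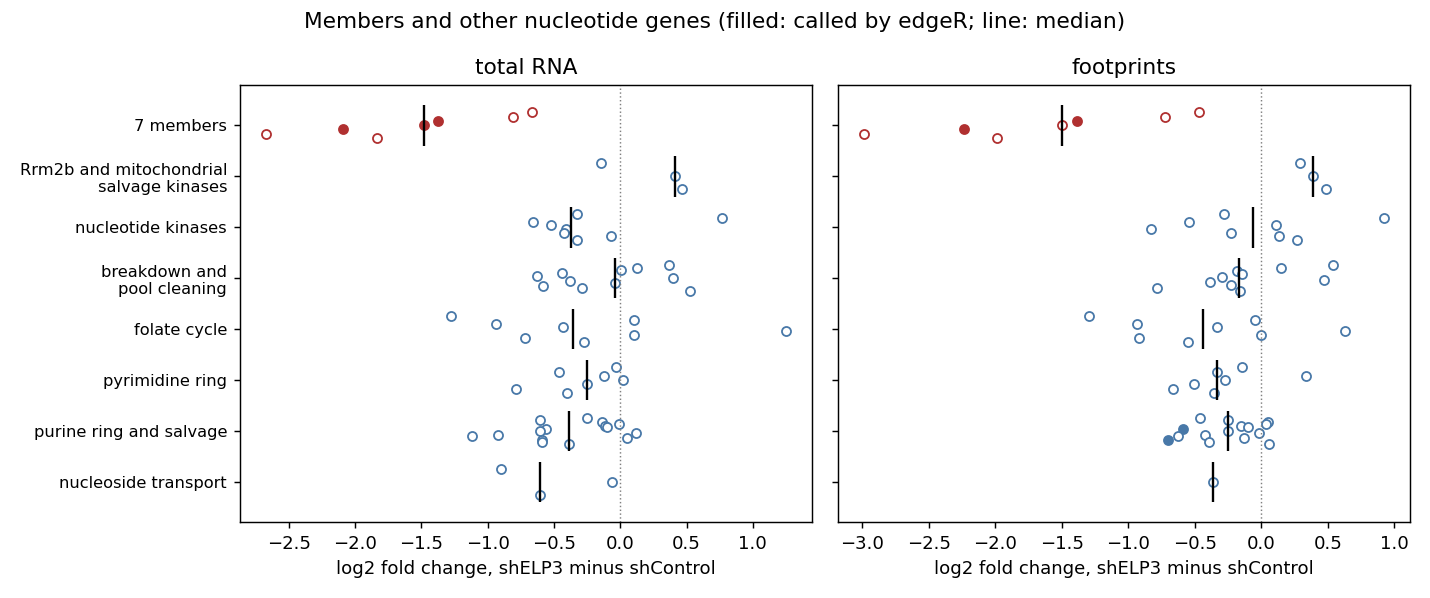
Log2 fold change, shELP3 minus shControl, of the 7 enzymes and of 57 other nucleotide genes by group, where tested, in total RNA and footprints; vertical lines are medians and filled points passed an edgeR adjusted p of 0.05. The 7 enzymes have medians of -1.48 and -1.50, and the group of Rrm2b with the mitochondrial kinases has medians of 0.41 and 0.39.

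Likeness to the mean pattern of the 7 genes was taken as the root mean square difference in log2 CPM, centred within each fraction, over the 12 libraries and 8530 genes. The 5 closest genes were Hells, a chromatin remodeller (0.142), Cenpm, a centromere protein (0.177), Atad2, a chromatin-binding ATPase (0.179), Ska3, a part of the spindle-binding Ska complex (0.179), and Spag5, a spindle protein (0.182). The median over all genes was 0.903. Among the members, each of which contributes to that mean, Rrm1 lay nearest to it at 0.137, then Rrm2 at 0.349, Dut at 0.375, Dtymk at 0.481, Tyms at 0.537, Dck at 0.542 and Tk1 at 0.720.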

How the data were processed

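The authors deposited raw read counts by gene symbol for the 12 libraries in one table, and 0 of its sample columns were left unused. The submitters' processing notes name HTSeq, TopHat2 2.1.1, Bowtie, bcl2fastq and the build mm10. For the annotation, the strand setting and the counted feature the sources used here give nothing. Of 24421 symbols 24313 matched the RefSeq table of GRCm38.p6.

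Low counts were removed in each fraction by filterByExpr at a minimum count of 10, and TE used the genes that passed in RNA and in RPF. After TMM scaling, edgeR 4.0.16 in R 4.3.3 was used for quasi-likelihood tests (glmQLFit, then glmQLFTest), adjusted by Benjamini-Hochberg over all genes tested, with a threshold of 0.05. TE was the interaction of fraction and shRNA over 12 libraries. TE levels used CPM plus 0.5, and log2 CPM a prior count of 2. Alternatives were DESeq2 1.42.0, its size factors, library totals, other count filters, replicate blocks and left-out libraries. In counts simulated from the RNA libraries (12154 genes) 2% of 2-fold and 50% of 4-fold changes were recovered, in RPF (11240 genes) 46% and 95%, and in TE (11131 genes) 0% and 37%. Simulated libraries were drawn independently, with no shift shared by libraries of a letter, so these rates do not cover the letter A difference.

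The members and lists were chosen with earlier results of these data known. All 7 members are named. Of other pathway genes, up to 2 called per list, fraction and direction were named by lowest adjusted p, and Rrm2b, Samhd1, Dctd, Tk2 and Dguok whatever their values. Some genes that the rule picks are left out of the text. Genes of like pattern needed a mean log2 CPM of at least 3, with unnamed models left out.

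Same-letter RNA libraries of the 2 shRNAs deviated together across genes (r = 0.807, 0.423 and 0.582 for A, B and C), so blocked RNA values are given where they change a call. Control B with shELP3 C (0.688) and control C with shELP3 B (0.579) did so as much, so letter A is set apart more than B and C are paired. RPF libraries did not in letter B (0.328, -0.107 and 0.215). The labels tie RNA and RPF of 1 culture.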

Additional observations from a re-analysis of the deposited data

How the results depend on the processing

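The direction of all 7 members held in RNA and in RPF under every alternative run. In RNA 3 members were called, against 6 with DESeq2, 0 with library totals, 7 with the replicate block, 7 on letters B and C and 0 to 5 with 1 library left out (4 with no count filter). In RPF 2 were called, against 4 with DESeq2, 4 with no count filter, 4 with the replicate block, 7 on letters B and C and 0 to 7 with 1 library left out. The RPF letters share only a letter. The RPF block called 3.91% of genes lower. With no count filter, 164 of 18542 genes were called lower in RNA and 499 of 17516 in RPF. Over all genes the replicate block moved calls from 140 to 1499 in RNA and from 548 to 666 in RPF, DESeq2 to 652 and 1308, and letters B and C to 2377 and 2477. In TE 0 members were called under every alternative. The sign of a TE change turned for Tyms with the culture as a replicate block (0.15). With 1 culture left out TE ranged from -0.23 to 0.14 for Rrm1, -0.42 to 0.036 for Tyms, -0.28 to 0.17 for Dut and -0.27 to 0.39 for Dtymk. The exact tests of ratios cannot pass 0.05 with 3 against 3, so those results say nothing about stability. Beyond the share of genes that enter each fit and the number of libraries, the cause of these differences was not tested. Tyms in control A RPF, at 27 counts, is the value that depth limits most.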
